A study of Mus musculus with 2 samples.

Results

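MYC is a transcription factor that binds DNA as a dimer with MAX, at short motifs called E-boxes, and drives genes of ribosome assembly, metabolism and division. MYCN is its close relative and is abundant in mouse embryonic stem cells, where MYC activity is tied to self-renewal and growth. MAX also pairs with MGA, MNT and MXI1, which repress genes at the same motifs, so the balance of partners sets the output of the network. Odc1, Ncl and Npm1 are widely used MYC target genes. They encode ornithine decarboxylase, the rate-limiting enzyme of polyamine synthesis, and nucleolin and nucleophosmin, abundant proteins of the nucleolus.

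These 9 genes were followed in a knockdown of the long noncoding RNA LincU. They were chosen by name, as every non-control probe whose gene name on the array is one of the 9. The rule uses no measured value, but the genes were proposed with earlier results of these data known. All 9 were found, on 19 probes of the 56572 measured, among 37058 gene names. RNA came from the mouse embryonic stem cell line 46C, cultured with serum and LIF on a feeder layer, which was removed ahead of RNA isolation. One group is labelled shCtrl, a control short hairpin, although its title reads WT, and the other is labelled shLincU, the hairpin against LincU. Each group was 1 one-colour Agilent array with a single dye, Cy3, so there is no replicate, no test between the groups and no p-value, and the number of arrays limits the precision. How the hairpins were delivered, and whether each culture was a clone or a pool, is not stated in the labels. The study's title ties LincU to the naive state of pluripotency and to ERK activity, and the comparison asks what the knockdown does to expression. LincU itself was not analysed here, so the knockdown was not checked and directions rest on the labels.

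Levels are log2 of the processed intensity relative to the 75th percentile of the same array, which was 626 intensity units for shCtrl and 420 for shLincU. A difference is shLincU minus shCtrl on this log2 scale, so a negative value is a lower level on the shLincU array. The scanner software gave each of the 19 probes an error of 0.20 to 0.22 for its difference. Most of that error is a fixed setting of the software, and it measures no spread between cultures. Over the 21042 genes measured on both arrays the median difference was 0.020, the 5th and 95th percentiles were -0.58 and 0.57, and probes of one gene differed with a median SD of 0.18.

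The network genes differed little between the arrays. None of the 9 was 2-fold apart, where 2.69% of all genes were (1.15% higher and 1.54% lower on the shLincU array), and none was 1.5-fold apart, against 9.62% of all genes. With so few genes, counts of 0 lie near what those shares would give. Gene values ran from -0.44 for Ncl to 0.34 for Odc1, with a median of 0.0058. Of the 9 genes, 5 were above 0 and 4 below, against 53.1% of all genes above 0 and 46.9% below. Every member lay within 0.5 of 0, as did 86.6% of all genes. At the level of probes, all 19 were well above background on both arrays, 9 were above 0 and 10 below. The median over the 19 probes was -0.020.

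**Figure D1:**
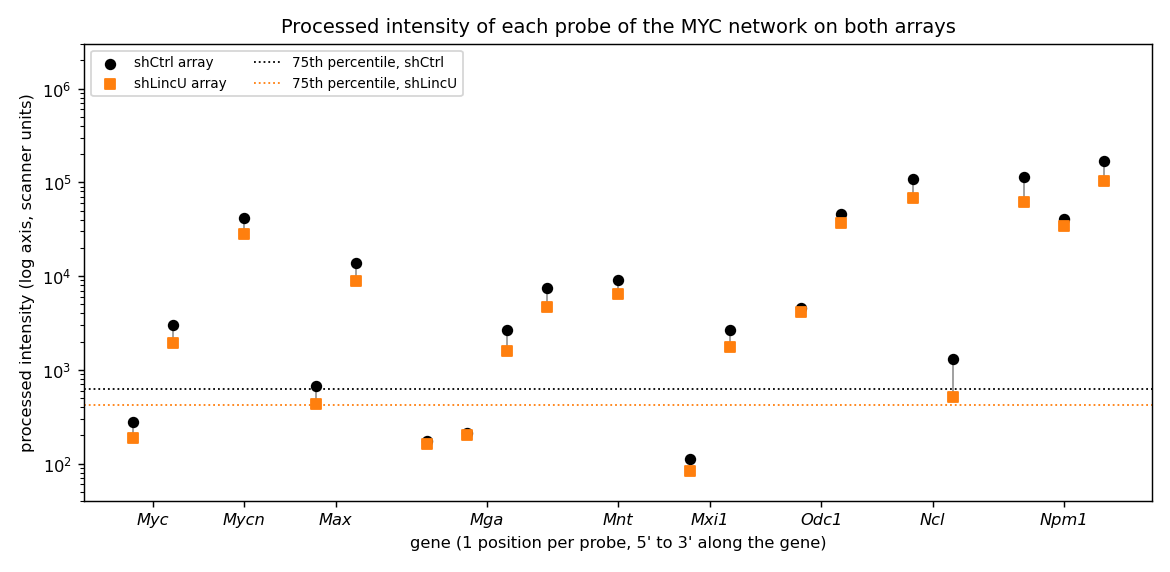
Processed intensity of the 19 probes on a log axis, with a black circle for the shCtrl array and an orange square for the shLincU array, and dotted lines at the 75th percentile of each array. Every orange square lies below its black circle, as the dotted lines do (626 and 420 intensity units), so levels are scaled before they are compared.

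The 2 MYC factors themselves were nearly level. Myc had 2 probes. One, at 61821417 to 61821476 on chromosome 15 in build mm9, read 3043 intensity units for shCtrl and 1937 for shLincU. After scaling these were levels of 2.28 and 2.21, a difference of -0.077. The second probe, at 61820925 to 61820984, read 277 and 187 intensity units, and its difference was 0.011. The gene mean was -0.033 (a ratio of 0.978) with a scanner error of 0.15, and it was 0.030 in the lower rows of the slide alone. Both probes list the same 4 RefSeq transcripts, so they do not separate isoforms.

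Mycn had a single probe at 12942981 to 12943040 on chromosome 12. It read 41416 and 27923 intensity units, or levels of 6.05 and 6.05, with a difference of 0.0058. Of all genes, 95.8% lay at least as far from their median as Mycn did. Its sign was not stable: it was positive in 8 of 13 alternative settings other than spike-in scaling and ranged from -0.048 to 0.024.

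MAX, the shared partner of every factor in the network, was close to 0 on both of its probes. The probe at 78038283 to 78038342 on chromosome 12 read 13677 and 8884 intensity units, a difference of -0.048. The probe at 78039312 to 78039371 read 677 and 435 units, a difference of -0.062. The SD between these probes was 0.0098, and 96.4% of genes with 2 probes had one at least as large. The gene mean of -0.055 was below 0 in 14 of 14 alternative settings other than spike-in scaling.

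Among the repressive partners of MAX, Mnt and Mxi1 were both at 0.062. MNT is the broadly expressed repressor that opposes MYC at shared sites. Its single probe, at 74658915 to 74658974 on chromosome 11, read 9136 and 6406 intensity units, or levels of 3.87 and 3.93. With normexp background correction Mnt was at -0.0032. MXI1 belongs to the MXD repressors, which recruit the SIN3 corepressor. A probe shared by its 3 RefSeq transcripts, at 53447579 to 53447638 on chromosome 19, read 2639 and 1748 units and was at -0.020. A dim probe for a predicted transcript, at 53406950 to 53407009, read 113 and 83.9 units and was at 0.14. The mean of Mxi1 thus sits above 0 through the dim probe alone, and with the brightest probe it was -0.020.

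The E-box itself was looked for in the promoters of the network genes, since MYC and its partners bind it. RefSeq promoter windows of the assembly GRCm38.p6, from 250 bases before to 50 after a transcription start, matched 7 of the 9 genes. Myc and Npm1 had no window and were not searched, nor was sequence outside the windows, such as introns further along a gene. The palindromic motif CACGTG occurred in 2 of the 9 windows of the 7 matched genes, 1 of Max and 1 of Mnt. Of all 32851 windows, 7.15% hold it. The 30 bases around each match follow because they are the only such matches in these windows, with the motif in capitals, on the strand of the gene. The Max motif starts 3 bases before the start site and the Mnt motif 123 bases before it. A match is a description of the letters and not a measured binding site.
Max chr12:76962234-76962263, GRCm38.p6, minus strand: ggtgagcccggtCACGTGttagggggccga
Mnt chr11:74830789-74830818, GRCm38.p6, plus strand: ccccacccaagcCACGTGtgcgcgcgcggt

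Mga gave the clearest disagreement between probes among the MAX partners. MGA is a large protein with both a T-box and a MYC-like DNA-binding domain, and it builds a variant Polycomb complex, PRC1.6, that silences germline genes in embryonic stem cells. Of its 4 probes, 2 list both RefSeq transcripts, and these were at -0.18 and -0.11. The other 2 list transcript NM_013720 without NM_001164274, and these were at 0.44 and 0.49. The array lists at most 4 accessions per probe, so a missing accession is what the file states and not a proof of specificity. The sequences of the 4 probes are shown because the gene mean of 0.16 hides this split.
Mga chr2:119767158-119767217, mm9, plus strand, NM_013720 listed alone: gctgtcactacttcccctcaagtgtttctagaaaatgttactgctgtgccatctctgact
Mga chr2:119767298-119767357, mm9, plus strand, NM_013720 listed alone: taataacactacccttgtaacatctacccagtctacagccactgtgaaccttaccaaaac
Mga chr2:119773937-119773996, mm9, plus strand, both transcripts listed: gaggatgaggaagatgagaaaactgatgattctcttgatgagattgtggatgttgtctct
Mga chr2:119786137-119786470, mm9, plus strand, both transcripts listed: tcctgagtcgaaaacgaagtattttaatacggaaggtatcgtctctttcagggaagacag

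The upper pair of Mga probes lies in one short stretch of chromosome 2, so it samples a single region of the transcript. Its probes read 176 and 214 intensity units for shCtrl and 160 and 201 for shLincU. In intensity units the arrays were thus close at these probes, while the shared probes read 2680 against 1593 and 7490 against 4648 units. The last probe covers 334 bases of genome with 60 bases of sequence, so its listed position runs across an intron. The mean was 0.46 for the upper pair and -0.14 for the shared pair. Each single difference of the upper pair was over 2 times its scanner error of 0.21. Among all probes of like signal, however, both lay between the 75th percentile (0.24) and the 95th (0.62). Of the 562 genes with 4 probes, pooled over all signal levels, 24.0% had an SD between probes at least as large as the 0.35 of Mga. The difference between the pairs has no replicate check. With the shared probes alone, a setting added after the values were seen, Mga was at -0.14.

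**Figure D2:**
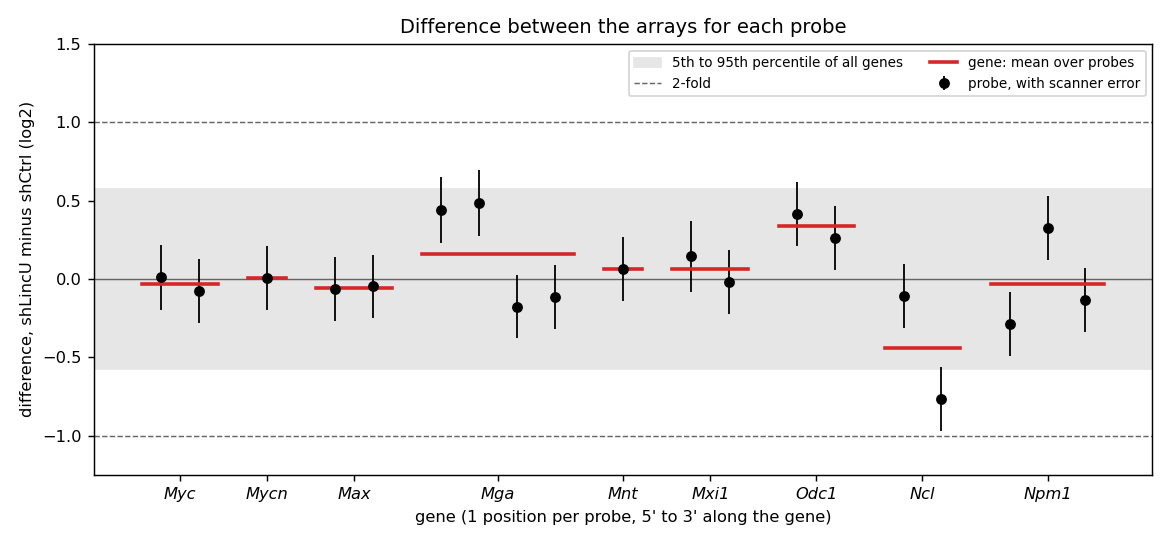
Difference between the arrays (log2, shLincU minus shCtrl) for each probe with its scanner error as bar, the gene mean as a red line, the 5th to 95th percentile of all genes as a grey band and 2-fold as dashed lines. The upper 2 Mga probes (0.44 and 0.49) and an Odc1 probe (0.42) are the highest. The distal Ncl probe at -0.77 is the only one outside the band, which pools all signal levels.

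Odc1 was the highest of the 9 genes, and its probes agreed. The probe at 17554799 to 17554858 on chromosome 12, at position 729 of the array's target transcript, read 4562 intensity units for shCtrl and 4090 for shLincU, or levels of 2.87 and 3.28. Its difference was 0.42. The probe at 17557831 to 17557890, at position 2069, read 45742 and 36756 units and was at 0.26. The gene mean of 0.34, a ratio of 1.26, is over 2 times its scanner error of 0.14. It stayed between 0.26 and 0.43 in 14 alternative settings other than spike-in scaling, positive in each. Of all genes, 28.1% lay at least as far from the median of all genes, but that share pools all signal levels, and dimmer probes spread wider. Among all probes of like signal, the probe at 0.42 lay above the 95th percentile (0.35). The probe at 0.26 lay between the 75th (0.21) and the 95th (0.37). The first probe is shown as the one with the larger value.
Odc1 chr12:17554799-17554858, mm9, plus strand: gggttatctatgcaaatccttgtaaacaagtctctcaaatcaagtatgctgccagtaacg

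Ncl was the lowest of the 9 genes, but this rested on 1 of its 2 probes. One, at 88247953 to 88248012 on chromosome 1, read 109820 and 68456 intensity units, or levels of 7.46 and 7.35, a difference of -0.11. The other lies further along the gene, at 88241516 to 88241575, and read 1294 and 510 units. Its levels of 1.05 and 0.28 differ by -0.77, the one member probe past 1.5-fold, where 10.1% of all probes measured on both arrays were. Of those probes 2.66% were as low or lower. An SD between probes as large as the 0.47 of Ncl was seen in 9.53% of the 4585 genes with 2 probes. Neither spot lay beside discordant spots, those 2-fold apart between the arrays. Both list transcript NM_010880, and the array gives their start positions in the target as 1984 and 7975. Whether the far dimmer probe at 7975 reads the same mature RNA as the first was not tested. The probe near 0 is shown, at the earlier position, 1984.
Ncl chr1:88247953-88248012, mm9, minus strand: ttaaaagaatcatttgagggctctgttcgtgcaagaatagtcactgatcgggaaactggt

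Npm1 was measured on 3 probes that did not agree in sign. One probe, shared by transcripts NM_008722 and NM_001252260, was spotted 10 times on each array. Its spots read 163769 to 175138 intensity units for shCtrl, with a median of 168996, and 100647 to 106010 for shLincU, with a median of 103884. The scaled difference per spot ran from -0.19 to -0.080 with an SD of 0.031, so all 10 spots were below 0. This SD is a measured spread of spots within an array pair, and it is far below the preset scanner error of 0.20, but spots share 1 RNA sample and are not replicates. The mean over its spots was -0.14. The probe listing all 3 RefSeq transcripts read 112980 and 62186 units and was at -0.29.

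The third Npm1 probe, at 33055026 to 33055085 on chromosome 11, lists transcript variant NM_001252261 and neither of the others. It read 40951 and 34427 intensity units and was at 0.32. The gene mean of -0.033 therefore averages 2 probes below 0 and 1 above, and the SD between them, 0.32, was matched or passed by 24.1% of 1736 genes with 3 probes. Npm1 has many near-identical pseudogene copies in the mouse genome, so its probes can share signal with them. The 2 probes below 0 are shown. They cover 303 and 1193 bases of genome with 60 bases each so their listed positions run across introns.
Npm1 chr11:33056689-33056991, mm9, minus strand, 3 transcripts listed: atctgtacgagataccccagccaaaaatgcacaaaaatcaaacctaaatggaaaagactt
Npm1 chr11:33052849-33054041, mm9, minus strand, 10 spots: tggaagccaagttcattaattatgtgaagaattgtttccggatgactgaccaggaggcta

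The brightest probes of the array were shifted as a class, which bears on Npm1, Ncl, Mycn and Odc1, and on the bright genes of the lists below. In the brightest of 20 bins of signal, which holds 6 member probes, the median difference of all probes was 0.10, against 0.021 in the next. Set against that median, the probes of Mycn (0.0058), Ncl (-0.11) and Npm1 (-0.14 and -0.29) lie lower than their values against 0 show, and those of Odc1 (0.26) and the Npm1 variant (0.32) less high. The Npm1 probe at -0.29 also lay below the 5th percentile of the brightest bin (-0.18). Normalizations that follow signal level gave Npm1 -0.15 (quantile) and -0.105 (cyclic loess), and Odc1 0.32 and 0.31.

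**Figure D3:**
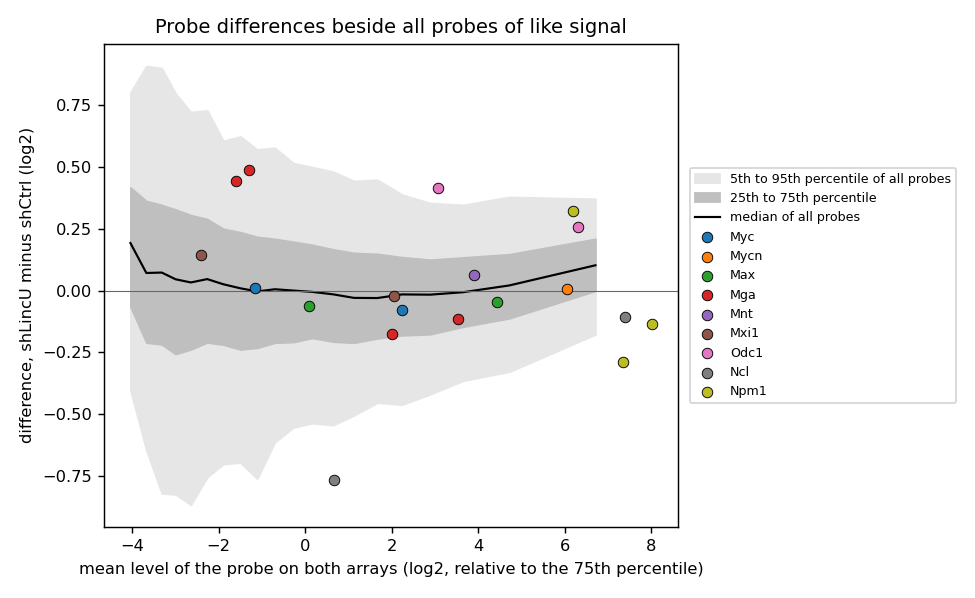
Difference of each member probe (log2, shLincU minus shCtrl) against its mean level on both arrays (log2, relative to the 75th percentile), over grey bands for the 5th to 95th and the 25th to 75th percentile of all probes of like level and a black line for their median. The line rises to 0.10 at the bright end. There the probes of Mycn (0.0058), Ncl (-0.11) and Npm1 (-0.14 and -0.29) lie below it. Those of Odc1 (0.26) and the Npm1 variant (0.32) lie above it.

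Genes around the network were grouped in 8 lists of textbook members, which also hold the network genes themselves. Of the list genes measured on both arrays none was 2-fold apart, against 2.69% of all genes. That share pools all signal levels, and dim probes spread wider than bright ones. A comparison with genes of like signal was not made. Over all genes 53.1% were above 0 and 46.9% below, the shares to set beside the counts of each list. The wider family of MYC and MAX dimer factors holds 13 genes, all measured, with a median of 0.0058, 7 above 0 and 6 below. Mycl, the third MYC gene, was the highest at 0.33 (levels of -2.31 and -1.98), on a single dim probe. Lowest were Mxd4, another MXD repressor, at -0.51, and Mlxip, a factor of the related MLX branch that senses glucose metabolites, at -0.41. Mga came after Mycl at 0.16. Mxd4 was at -0.064 with normexp background correction. Without the background filter Mlxip was at -0.077.

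Cofactors of MYC and of its antagonists were close to level. The 12 coactivator genes had a median of 0.042, with 8 above 0 and 4 below. Ruvbl1, an ATPase of the TIP60 and INO80 complexes, was at 0.31, and Kat5, the TIP60 acetyltransferase, at 0.22. Actl6a, a subunit shared by several remodelling complexes, was at -0.11. The probes of Actl6a gave 0.29 in the upper rows of the slide and -0.29 in the lower rows. The 9 genes of the SIN3 and HDAC corepressors had a median of -0.037, with 4 above 0. Rbbp7, a histone chaperone, was at 0.44 and its relative Rbbp4 at 0.10. Hdac2, a deacetylase, was at -0.47 on 1 probe (-0.21 with normexp background correction), and Sap30, a SIN3 subunit, at -0.17.

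Partners of MGA in PRC1.6 had a median of -0.040 over 12 genes, 4 above 0 and 8 below. Pcgf6, the subunit that defines this complex, was the lowest at -0.57. Its 2 probes agreed to an SD of 0.029, with mean levels of 1.66 for shCtrl and 1.09 for shLincU, and it stayed between -0.61 and -0.55 in the alternative settings other than spike-in scaling that measured it. Rybp, a subunit that competes with CBX proteins, was at -0.25 but at 0.058 without the background filter. Cbx3, a heterochromatin protein of the complex, was at 0.40, and Mga itself followed at 0.16.

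Genes that set the stability of the MYC protein had a median of 0.14 over 13 genes, with 10 above 0 and 3 below, against 53.1% of all genes above 0. That median was 0.11 with quantile normalization and 0.074 with the brightest probe. The list pools ubiquitin ligases, deubiquitinases and kinases, which do not all act on MYC in one direction. Its median therefore gives no direction for the MYC protein, which was not measured. Usp37, a deubiquitinase, was at 0.35 on 1 probe and Huwe1, a large ubiquitin ligase, at 0.32. Huwe1 had 5 probes with an SD of 0.32, and its brightest was at -0.079. Lowest were Trim32, a ubiquitin ligase, at -0.44 and Skp2, the F-box subunit of a ligase for MYC and cell cycle inhibitors, at -0.34. Without the background filter these were at -0.035 and 0.0094.

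The polyamine genes around Odc1 had a median of 0.10 over 11 measured genes, 7 above 0 and 4 below. Paox and Sat1, enzymes of polyamine breakdown, stood at 0.56 and 0.40, above Odc1 itself. Paox was at 0.34 in the lower rows of the slide, and the 2 probes of Sat1 gave 0.61 in the lower and 0.22 in the upper rows. Mtap, which recycles a by-product of the pathway, was lowest of the genes measured on both arrays at -0.15, next to Smox, a spermine oxidase, at -0.098. Arg2 was well above background on the shCtrl array alone, so it was at least 1.58-fold lower for shLincU, and a 2-fold difference cannot be told from this bound. Amd1 was not analysed here because no probe bears that name.

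Nucleolar and ribosome assembly genes, the class of Ncl and Npm1, had a median of 0.11 over 28 genes, with 16 above 0 and 12 below, so Ncl and Npm1 stood below the median of their class. Npm3, a nucleophosmin relative, was the lowest at -0.93 on 1 probe, with levels of 1.55 and 0.62, and the only gene of the 28 that was 1.5-fold apart, against 9.62% of all genes. It stayed between -0.97 and -0.89 in the alternative settings other than spike-in scaling that measured it. Polr1b, a subunit of RNA polymerase I, was at -0.49, but its 2 probes differed and without the spot beside discordant spots it was at 0.044. Highest were Nop16 at 0.35 and the helicase gene Ddx21 at 0.31, both of ribosome assembly.

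Other widely used MYC targets had a median of 0.11 over 32 genes, with 25 above 0 and 7 below. Slc7a5 and Slc3a2, the 2 chains of one amino acid transporter, were highest at 0.62 and 0.51. Slc7a5 rests on 1 dim probe whose spot lay beside discordant spots, while Slc3a2 had 3 probes and was at 0.52 without such spots. Ccnd2, the gene of cyclin D2, was lowest at -0.91, on 3 probes with an SD of 0.13 (levels of 2.79 and 1.88). Prps2, an enzyme of nucleotide synthesis, was at -0.49. Of the 32 genes, Slc7a5 and Ccnd2 were 1.5-fold apart, against 9.62% of all genes. The list pools genes that MYC activates with 3 that it represses, Cdkn1a (0.37), Gadd45a (0.026) and Ndrg1 (0.37). Without these, 22 of 29 genes were above 0 and the median was 0.11, and among all genes 53.1% were above 0. Several genes of this list are very bright, such as Ran (8.19 for shCtrl) and Nme2 (8.06). In the brightest bin of all probes the median was 0.10 and the 25th percentile -0.0007. The part of this bright shift in the count above 0 was not tested. With quantile normalization the median of the 32 genes was 0.077.

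**Figure D4:**
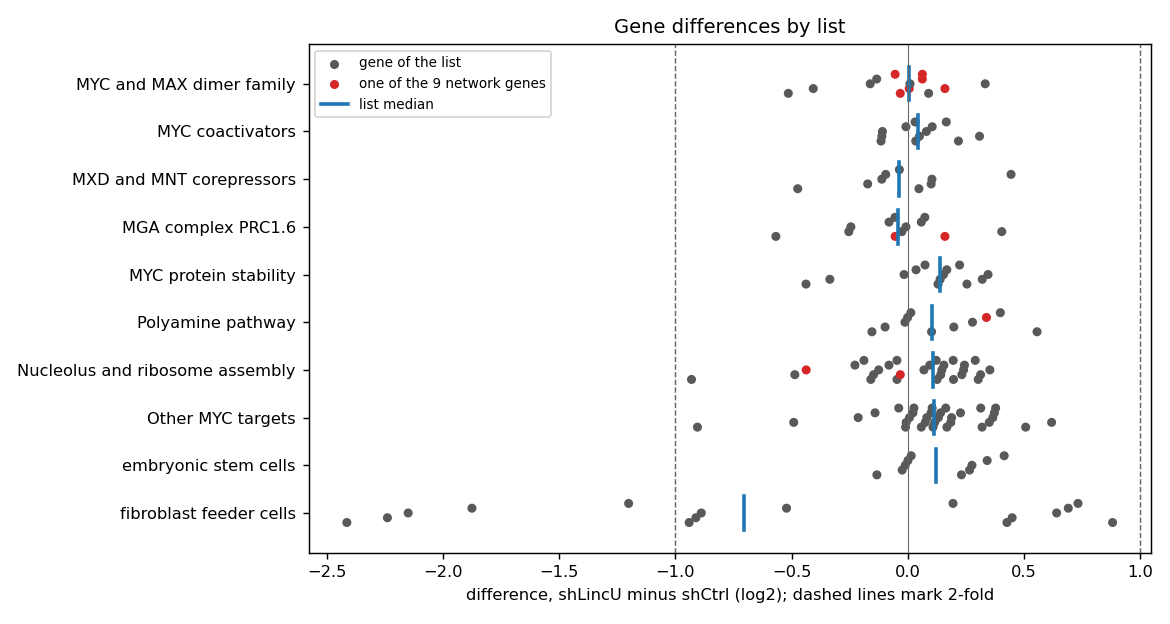
Differences of single genes (points; log2, shLincU minus shCtrl) in the 8 lists and in 2 lists of cell type markers, with the list median as a blue line, the network genes in red and dashed lines at 2-fold. In the 8 lists all points lie inside the dashed lines, and list medians run from -0.040 to 0.14, while 5 feeder markers lie beyond 2-fold on the lower side.

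Cell type markers were read beside these values. All 10 markers of embryonic stem cells were well above background on both arrays, with a median of 0.12, and their summed level was 9.57 for shCtrl and 9.76 for shLincU (log2). Of 18 fibroblast feeder markers 16 were measured on both arrays, with a median of -0.71, 7 above 0 and 9 below. The 5 that were at least 2-fold lower were Dcn (-2.41), Ccl2 (-2.24), Lox (-2.15), S100a4 (-1.88) and Col1a2 (-1.20), where 1.54% of all genes were 2-fold lower. Without the background filter Col1a2 was at -0.24, and with normexp background correction Dcn was at -1.41 and Lox at -1.31. Among the 7 above 0 the highest were Tagln (0.88), Col5a1 (0.73), Twist2 (0.69) and Col3a1 (0.64), named after their values were seen. The summed level of the 16 markers was 5.25 for shCtrl and 5.46 for shLincU, which rested on Tagln, with levels of 4.03 and 4.91. Without Tagln the sum was 4.45 for shCtrl and 3.80 for shLincU. Lum was well above background for shLincU alone, and by its bound it was at least 2.32-fold higher there, against the direction of the 5 named. A spot of Lum lay beside discordant spots. Pdgfra was well above background for shCtrl alone, and its bound of 0.887-fold sets no direction. None of these defining markers was absent from both arrays, and their part in the differences of the network genes was not tested. In such bulk RNA, fewer cells of a type and less RNA per cell cannot be told apart.

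Another scaling put the whole network below 0. When the arrays were scaled to 8 E1A spike-in probes, the median of all genes moved by -0.89, and all 9 genes were then below 0, from -1.33 for Ncl to -0.55 for Odc1. Their order was the same, since every gene moves alike, and the median of the 9 stayed 0.014 below that of all genes. The directions given here are therefore relative to the other genes of an array.

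**Figure D5:**
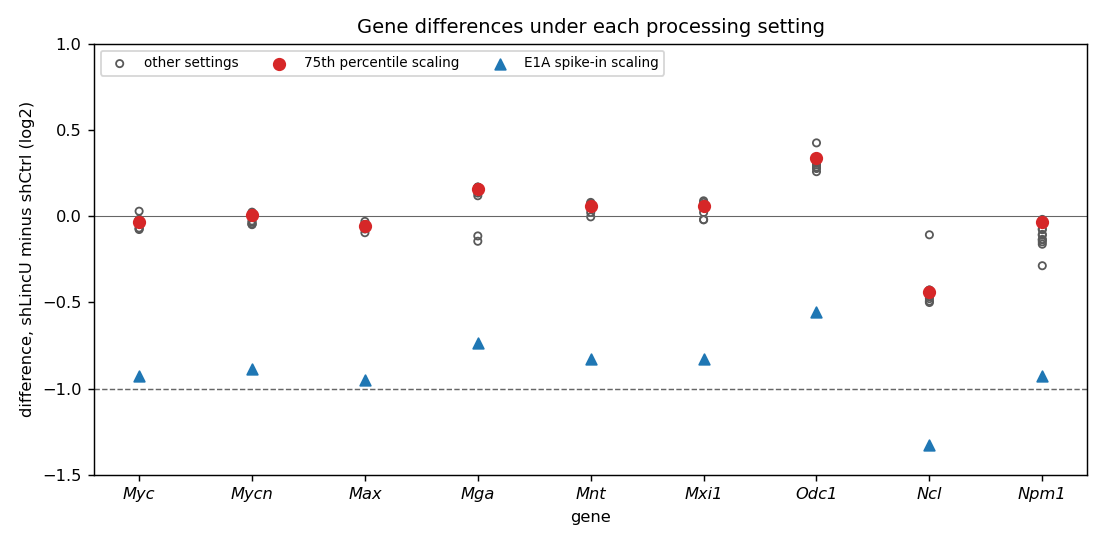
Difference of each gene (log2, shLincU minus shCtrl) under 75th percentile scaling (red circles), E1A spike-in scaling (blue triangles) and the other settings (open circles), with 2-fold lower as a dashed line. Outside spike-in scaling only Odc1 and Ncl lie apart from 0 in every setting by more than 0.10, and Myc, Mycn, Mga, Mnt and Mxi1 change sign in at least 1 of them.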

How the data were processed

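Total RNA from 1 shCtrl and 1 shLincU sample was hybridised to one-colour Agilent arrays, per the labels. The submitters' processing notes name Agilent Feature Extraction 10.7.1.1. Per the file headers, the processed intensity had a spatial background trend subtracted and a multiplicative trend corrected within the array. Probe positions are in mm9. The deposited log2 value table has the same quantiles on both arrays; its slope on log2 intensity was 1.00 for each, its column medians were both 5.65, and its centring stays unknown.

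Spots marked as outliers (98 and 138) were left out, spots of a probe averaged on the log2 scale, and the 75th percentile of the array subtracted. A gene, by its array name, is the mean over probes well above background on both arrays. No test was possible with 1 array per group; calls are sizes (2-fold, 1.5-fold). A bound for a gene seen on 1 array is set against its own signal on the other array. Where the lowest signal well above background on that other array is higher, that is used instead. A discordant spot differed 2-fold between the arrays, and a spot is beside such spots when 2 of its 14 neighbours are discordant in one direction. Upper rows are rows 1 to 192 of 384. Named were all 9 members, the 2 highest and 2 lowest genes of each list, and markers 2-fold apart; 1 gene that this rule names is not reported here. The members and lists were chosen with earlier results of these data known. The calculation was tested on simulated data. The 15 alternatives were normexp with an offset of 50, quantile, cyclic loess, median centring, E1A spike-in scaling, the deposited value table, no background filter, the positive and significant flag, the brightest probe, the median over probes, outlier spots kept, the upper rows, the lower rows, no spots beside discordant spots, and member probes that list every RefSeq transcript. Normexp, quantile and loess values came from limma 3.58.1 in R 4.3.3, and all else from Python 3.11.15 with pandas 2.3.3, numpy 2.4.6 and matplotlib 3.10.9.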

Additional observations from a re-analysis of the deposited data

How the results depend on the processing

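No paired analysis was possible because there is a single array of each kind, and leaving one out would leave no comparison. A value is called unmoved here when it changed by less than 0.18, the typical SD among a gene's probes, and a count when it stayed within 1.5 times. Under E1A spike-in scaling the members' median was -0.89, 1 member was 2-fold apart and 0 were above 0. The list medians then were -0.89 (dimer family), -0.85 (coactivators), -0.93 (corepressors), -0.93 (PRC1.6), -0.75 (MYC stability), -0.79 (polyamines), -0.78 (nucleolus) and -0.78 (other targets). The count of 5 members above 0 was 3 with normexp, 3 with the brightest probe and 2 in the upper rows, where 6 members have a probe. It was 4 with quantile, cyclic loess, median centring and the deposited value table. Outside spike-in scaling and the setting on RefSeq transcripts, the medians of the 9 genes and the 8 lists were unmoved, and 0 members were 2-fold apart. With probes that list every RefSeq transcript the members' median was -0.033, and counts and lists were not run. The summed level of feeder markers was 0.21 higher for shLincU, but the difference was -0.65 without Tagln, an alternative also chosen after seeing the data, as was leaving 3 MYC-repressed genes out of the other targets (median 0.11). Without the background filter the median of all genes rose by 0.12, and the values of the 9 genes were the same, since all 19 probes pass it. Besides spike-in scaling, which moved all 9, Mga (-0.11) and Ncl (-0.11) moved with the brightest probe, and Mga (-0.14) and Npm1 (-0.29) with probes that list every RefSeq transcript, a setting chosen after seeing the data. All 2-fold calls among all genes numbered 242 higher and 323 lower, against 96 and 108 with normexp, 1470 and 1331 without a background filter, 954 and 905 with the positive and significant flag, 88 and 150 in the upper rows, and 44 and 6809 with E1A scaling.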
